A study of Mus musculus with 12 samples.

Results

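The sterol and fatty acid synthesis genes are a list of 30 mouse genes: 6 of the mevalonate pathway, 11 of the steps from farnesyl diphosphate to cholesterol, 5 that control the sterol response, 7 of fatty acid synthesis and 1 sterol carrier. Each gene was represented by the probe selected on the highest mean raw intensity over all 12 arrays. Of the 30 genes, 28 had a probe annotated to that symbol alone, out of 19057 genes with such a probe. Hmgcs1, which makes the substrate of the mevalonate pathway, and Fdft1, squalene synthase, had none and were not analysed here. Mvk, mevalonate kinase, was detected on 0 of 12 arrays, and Acaca, acetyl-CoA carboxylase, on 1 of 12. The other 26 were detected on at least 3 arrays (detection p below 0.05) and were tested among 11888 genes.

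The RNA came from eye primordia of mouse embryos at E10.5 (the embryonic day) on a mixed C57BL6 and FVB background. Distal optic vesicle, the prospective retina, and surface ectoderm, the prospective lens, were cut from 10 µm frozen sections by laser microdissection, and 15 ng of RNA was amplified for Illumina bead arrays. There were 4 groups of 3 arrays: WT optic vesicle, KO optic vesicle, WT surface ectoderm and KO surface ectoderm, where KO is the deletion of Bmp4 and WT is the wild type. The Cre driver or other means of deletion, and any allele that WT and KO embryos share, are not given in the sources used here. The submitters state 3 embryos of each genotype and pooling of the RNA, which leaves unclear what the 3 replicates of a group are, so p-values measure the spread between these arrays, which may be technical.

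Cells build cholesterol from acetyl-CoA through mevalonate, isoprenoids, squalene and lanosterol, and fatty acids from the same acetyl-CoA. Genes of both routes are switched on by SREBP transcription factors, which SCAP carries to the Golgi when membrane sterol is low and which the INSIG proteins hold in the endoplasmic reticulum when sterol is high. In the embryo, cholesterol is also bound to Hedgehog proteins and to the receptor component Smoothened, which act in the patterning of the forebrain and eye.

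Of the 6 genes that fell in KO surface ectoderm (below), 4 have a promoter window in the RefSeq table of GRCm38.p6, and these are shown. SREBP targets often carry CCAAT boxes, which bind the co-factor NF-Y. Whether the 6 genes share a cause of their fall was not tested. Each line gives the 250 bases before the annotated start, 5′ to 3′ on the gene's strand, with CCAAT on either strand (ATTGG on the printed strand for the reverse) in capitals. Idi1 lies at chr13:8885356-8885605 on the plus strand, Insig1 at chr5:28071162-28071411 on the plus strand, Msmo1 at chr8:64733579-64733828 on the minus strand and Hsd17b7 at chr1:169969206-169969455 on the minus strand. The start used for Hsd17b7 lies inside the gene span given below, which ends at 169969242. Its last printed bases, with the CCAAT 12 bases before that start, fall within this span.
Idi1: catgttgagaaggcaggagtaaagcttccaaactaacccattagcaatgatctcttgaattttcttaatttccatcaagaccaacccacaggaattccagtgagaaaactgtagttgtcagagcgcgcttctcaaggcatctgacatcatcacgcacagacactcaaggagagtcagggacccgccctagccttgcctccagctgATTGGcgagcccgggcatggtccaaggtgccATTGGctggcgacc
Insig1: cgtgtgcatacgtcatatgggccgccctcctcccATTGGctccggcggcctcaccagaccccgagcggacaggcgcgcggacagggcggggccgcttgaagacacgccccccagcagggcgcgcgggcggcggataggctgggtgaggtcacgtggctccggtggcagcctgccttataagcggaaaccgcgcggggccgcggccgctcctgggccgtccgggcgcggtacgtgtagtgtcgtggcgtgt
Msmo1: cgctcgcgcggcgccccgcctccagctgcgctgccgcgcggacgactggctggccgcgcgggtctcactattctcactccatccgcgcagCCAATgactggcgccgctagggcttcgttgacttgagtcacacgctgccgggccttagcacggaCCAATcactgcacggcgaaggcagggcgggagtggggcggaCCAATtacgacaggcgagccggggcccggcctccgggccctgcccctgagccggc
Hsd17b7: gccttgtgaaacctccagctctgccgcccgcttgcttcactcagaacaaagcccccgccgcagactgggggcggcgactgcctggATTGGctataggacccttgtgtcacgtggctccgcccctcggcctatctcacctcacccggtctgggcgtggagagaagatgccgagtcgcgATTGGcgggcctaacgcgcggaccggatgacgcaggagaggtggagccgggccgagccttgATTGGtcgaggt
The window of Msmo1 held 3 CCAAT motifs, 160, 96 and 55 bases before the start, and that of Hsd17b7 held 3, at 165, 73 and 12 bases. Idi1 had 2, at 45 and 14 bases, and Insig1 had 1, at 216 bases. Among members that did not pass or were not tested there, Mvk had 5, Fasn 3, and Acaca and Elovl6 0. Over all 300-base windows, CCAAT stood in at least 1 window of 21 of the 24 members with a window and of 41.1% of 27025 genes. The GC box GGGCGG, on either strand, stood in 20 of 24 members and in 38.2% of all genes. The sterol element TCACNCCAC, on either strand, stood in 1 of 24, Hmgcs1, as TCACCCCAC 137 bases before its start, and in 1.44% of all genes. These are matches of letters, not measured binding, and Fdps and Scd1 are named only.

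On each array 45.0% to 46.7% of 45281 probes were detected, the array medians of raw intensity ran from 85.7 to 123, and the value of a member rested on a median of 28 to 53.5 beads with a median bead standard error of 3.38%. Replicates correlated at 0.915 to 0.917 in KO surface ectoderm, the lowest of the groups, and at 0.921 to 0.955 in the other groups. These correlations are over the 20531 probes with a single symbol that were detected on at least 3 arrays. Bmp4 itself read 8.26 ± 0.04 in WT optic vesicle and 4.59 ± 0.51 in KO optic vesicle, a log2 difference of -3.67 (limma, adjusted p = 1e-04). The surface ectoderm means were 6.02 ± 0.11 (WT) and 4.92 ± 0.64 (KO), which did not pass (-1.10, adjusted p = 0.14). A dimmer Bmp4 probe gave -1.12 in optic vesicle and 1.23 in surface ectoderm, with adjusted p = 0.46 and 0.24 in a fit of all probes. All values are normalised log2 intensities with SD over n = 3 arrays, differences are KO minus WT unless stated, and every adjusted p is from limma over all genes with Benjamini-Hochberg adjustment and a threshold of 0.05. Laser-cut tissue is a bulk sample, in which fewer cells of a type and less RNA per cell cannot be told apart.

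The first comparison asks how the genes differ in the surface ectoderm when Bmp4 is deleted. The list was lower in KO surface ectoderm: 24 of 26 members had a difference below 0, with a median of -0.54, against 48.4% of all genes and a median of 0.02. Of the 26 members, 6 passed the test, all lower: Idi1, Fdps, Msmo1, Hsd17b7, Insig1 and Scd1. In this comparison 4.95% of all genes passed, and 2.39% passed in the lower direction. All 3 KO arrays lay below all 3 WT arrays for 9 members, against 9.46% of all genes. The other 3 of these were Lss, Tm7sf2 and Srebf2.

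Taking each member's distance from its own mean over 12 arrays, the median over the 26 members was -0.37, -0.55 and -0.57 on the KO surface ectoderm arrays. It was 0.04, 0.19 and 0.09 in WT surface ectoderm, 0.24, 0.06 and 0.05 in KO optic vesicle and 0.32, 0.43 and 0.30 in WT optic vesicle. The KO surface ectoderm arrays thus stood lowest and did not overlap the other 9, while the same median over all genes stayed between -0.05 and 0.02 on every array. The heat map of the members shows where the low values lie.

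**Figure D1:**
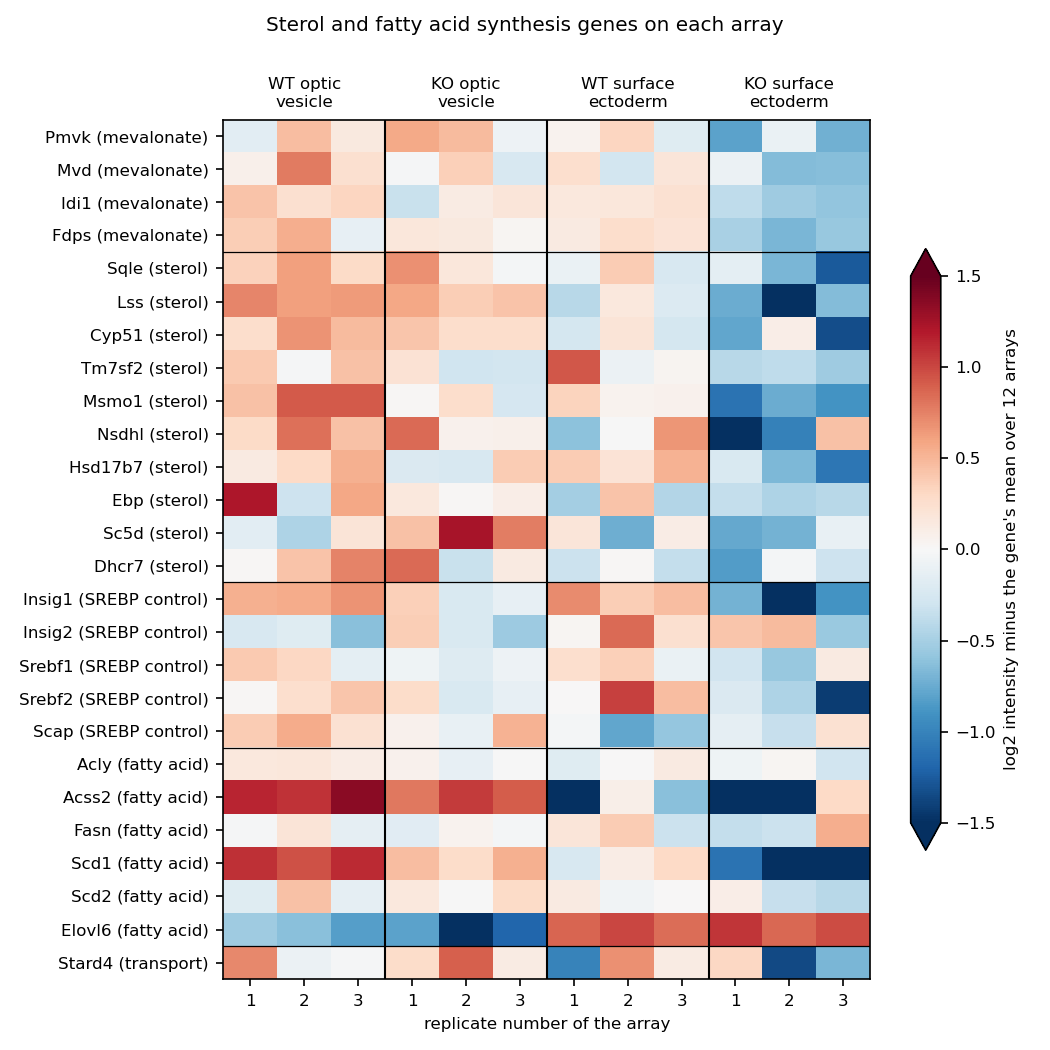
Heat map of the 26 tested members (rows, grouped by role) on the 12 arrays (columns, by group and replicate); colour is the normalised log2 intensity minus the gene's mean over 12 arrays, and colours are clipped at the ends of the bar. The mevalonate and sterol rows are mostly blue on the KO surface ectoderm arrays, and Elovl6 runs the other way between the tissues.

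The mevalonate enzymes turn mevalonate into the isoprenoid units of sterols. All 4 tested were lower in KO surface ectoderm, with a median of -0.65, and 2 passed. Idi1, isopentenyl-diphosphate isomerase (Entrez 319554, chromosome 13 of GRCm38.p6, 8885606 to 8892396), read 11.83, 11.85 and 11.91 in WT and 11.29, 11.14 and 11.08 in KO. The WT arrays lay within 0.1 of each other and well above every KO array. Its mean went from 11.86 ± 0.04 to 11.17 ± 0.11, a difference of -0.69 (SE 0.12, adjusted p = 0.0026). Fdps, farnesyl diphosphate synthase (Entrez 110196, chromosome 3, 89093588 to 89101967), which makes the last intermediate shared by sterols, dolichol and protein prenylation, read 9.20, 9.32 and 9.27 in WT and 8.58, 8.37 and 8.49 in KO. These ranges did not overlap, and Fdps fell by 0.78 (SE 0.18, adjusted p = 0.024). The call of Fdps was lost when any of 5 of the 6 surface ectoderm arrays was left out, all but KO replicate 1. Pmvk, phosphomevalonate kinase, differed by -0.60 and Mvd, the decarboxylase after it, by -0.51, and neither passed (adjusted p = 0.43 and 0.47).

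The sterol enzymes convert farnesyl diphosphate to cholesterol. All 10 tested were lower in KO surface ectoderm, from -1.07 to -0.17 with a median of -0.72, and 2 passed, both of which work after the lanosterol stage. Msmo1, the sterol C4 methyl oxidase (Entrez 66234, chromosome 8, 64718123 to 64733578), read 7.85, 7.58 and 7.58 in WT and 6.42, 6.78 and 6.62 in KO. The gap between the groups was wider than the range of either, and Msmo1 fell by 1.07 (SE 0.28, adjusted p = 0.041). Its p lay close to the threshold, and the call was lost whichever of the 6 arrays was left out, and without background correction (-0.68, adjusted p = 0.058). Hsd17b7, the ketosteroid reductase that completes C4 demethylation (Entrez 15490, chromosome 1, 169949535 to 169969242), read 10.48, 10.31 and 10.63 in WT and 9.87, 9.43 and 9.02 in KO. Every KO array was below every WT array, and Hsd17b7 fell by 1.03 (SE 0.21, adjusted p = 0.011), a 2.05-fold difference.

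Of the sterol enzymes that did not pass, Lss, lanosterol synthase, had the lowest p (difference -0.81, adjusted p = 0.098). Its arrays were 7.70, 8.28 and 7.92 in WT and 7.38, 6.62 and 7.47 in KO, without overlap. Sqle, squalene epoxidase, a rate-limiting step, differed by -0.71 (adjusted p = 0.19), and its highest KO array, 8.59, lay above the lowest WT array, 8.50. Tm7sf2, a sterol C14 reductase, was detected on all 3 WT arrays at 5.36 ± 0.56 and on 0 of 3 KO arrays at 4.62 ± 0.08. The bound on the difference of these means was at least 1.51-fold lower in KO, without regard to the spread between arrays. The difference did not pass (adjusted p = 0.20), and its 95% interval ran from -1.38 to -0.095. Nsdhl, the dehydrogenase that works between Msmo1 and Hsd17b7, ranged from 5.24 to 7.68 on the KO arrays and differed by -0.88 (adjusted p = 0.43). Cyp51, Ebp, Sc5d and Dhcr7, the demethylase, isomerase, desaturase and final reductase of the route, differed by -0.56, -0.23, -0.39 and -0.17, and none passed. Ebp and Sc5d were near the limit of detection, on 6 and 8 of 12 arrays.

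Among the genes that control SREBP, Insig1 had the largest difference of all members in this tissue. Insig1, the sterol-dependent anchor of SCAP and itself an SREBP target (Entrez 231070, chromosome 5, 28071412 to 28078662), read 10.4997, 10.17 and 10.26 in WT and 9.08, 8.09 and 8.89 in KO. No KO array came within 1 log2 unit of a WT array. Insig1 fell by 1.62 (SE 0.23, adjusted p = 0.00054), which is 3.07-fold. Srebf2, the factor that drives the sterol genes, read 6.91, 7.93 and 7.37 in WT and 6.69, 6.44 and 5.48 in KO, a difference of -1.20 that did not pass (SE 0.40, adjusted p = 0.11). Srebf1, the factor more tied to fatty acid genes, differed by -0.41 (adjusted p = 0.47), Insig2, the second anchor, by -0.26 and Scap, the escort, by 0.38 (adjusted p = 0.58), and none of them passed.

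Of the 6 fatty acid genes tested, 5 differed below 0 with a median of -0.17, and 1 passed. Scd1, stearoyl-CoA desaturase, which puts the double bond into oleate (Entrez 20249, chromosome 19, 44394450 to 44407709), read 8.57, 8.92 and 9.11 in WT and 7.71, 6.95 and 7.20 in KO. All KO arrays lay below all WT arrays, and Scd1 fell by 1.58 (SE 0.22, adjusted p = 0.00049), which is 2.99-fold. Scd2, the paralogous desaturase, differed by -0.25 (adjusted p = 0.65). Acly, ATP citrate lyase, which supplies cytosolic acetyl-CoA, was measured with small spread, 11.59 ± 0.16 in WT and 11.50 ± 0.16 in KO, and the 95% interval of its difference ran from -0.30 to 0.12. Fasn, fatty acid synthase, was detected on 4 of 12 arrays and differed by -0.13, Acss2, acetyl-CoA synthetase, by -0.22 and Elovl6, the C16 elongase, by 0.07. Stard4, a sterol carrier protein, differed by -0.51 with overlapping arrays (adjusted p = 0.68).

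**Figure D2:**
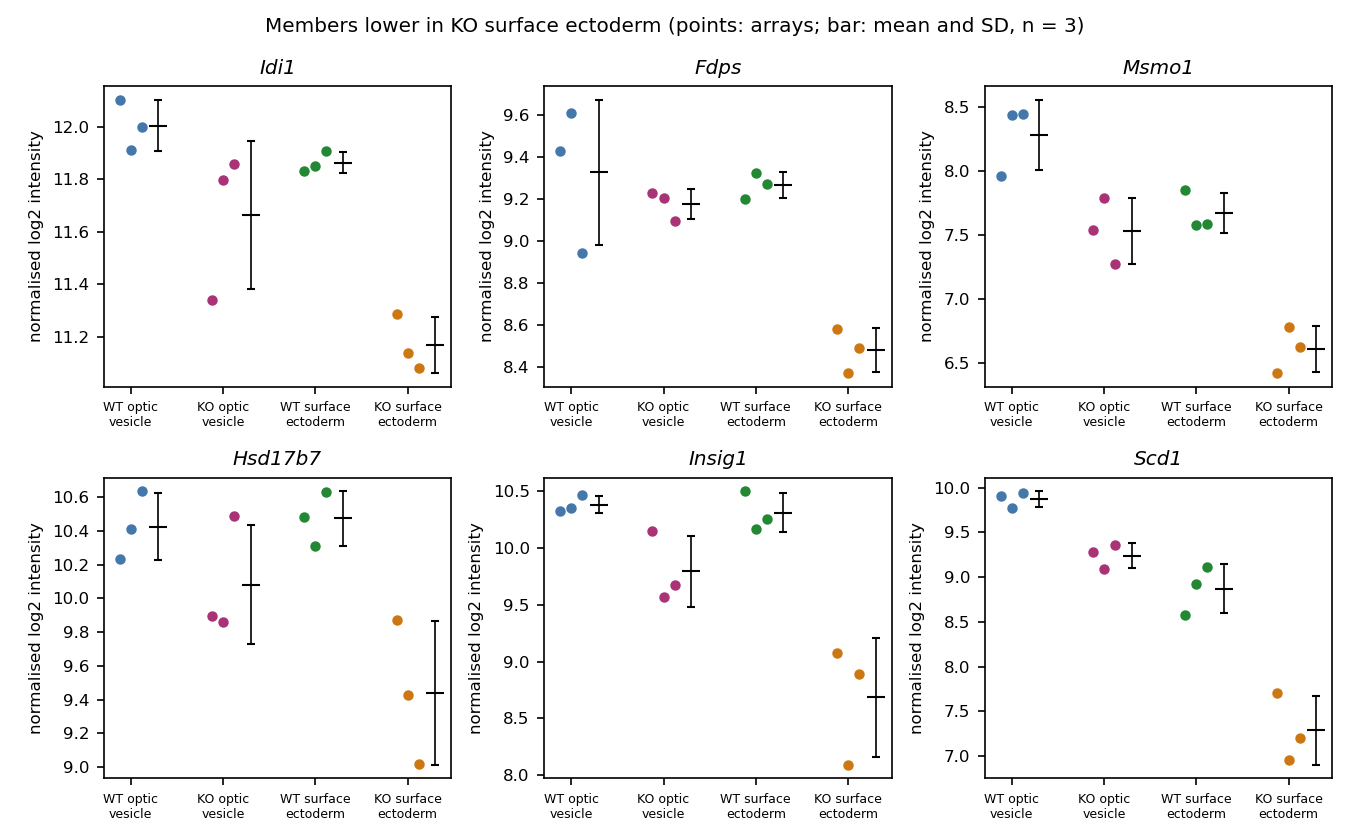
Normalised log2 intensity of the 6 members that passed in KO surface ectoderm, by group; points are arrays and the bar is the mean and SD (n = 3). The KO surface ectoderm arrays are the lowest of the 12 in every panel but that of Hsd17b7, where 1 of them, at 9.87, lies just above a KO optic vesicle array at 9.86.

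The arrays lay on 2 slides, each holding 1 or 2 arrays of every group. Within slide 1 the differences were -0.65 for Idi1, -0.72 for Fdps, -1.20 for Msmo1, -0.95 for Hsd17b7, -1.35 for Insig1 and -1.29 for Scd1. Within slide 2 they were -0.77, -0.90, -0.81, -1.21, -2.17 and -2.16 in the same order, so each gene was lower on both slides, and with slide as a block the same 6 members passed. Idi1, Hsd17b7, Insig1 and Scd1 also passed whichever of the 6 surface ectoderm arrays was left out.

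Some members had further probes, and a fit of all 20531 kept probes, in which 3.64% passed for KO against WT in surface ectoderm and 1.27% in optic vesicle, was used to compare them. All 4 Insig1 probes were lower in KO surface ectoderm, by -1.62, -1.13, -0.97 and -1.13, and the 2 brightest passed (adjusted p = 0.00059 and 0.0015). The 3 Sqle probes also had the same sign in surface ectoderm, at -0.71, -0.89 and -1.005. In optic vesicle the second Sqle probe gave 0.78 (adjusted p = 0.36), where the first gave -0.14 and the third -0.15. Between the WT tissues, as optic vesicle minus surface ectoderm, the 3 gave 0.41, -0.50 and 0.01. Probes also disagreed for other genes. A second Lss probe gave 0.17 in surface ectoderm, where the first gave -0.81, and -1.36 in optic vesicle (adjusted p = 0.033), where the first gave -0.20, and the faintest Lss probe gave 0.03 in surface ectoderm. A second Srebf2 probe, also detected on all arrays, gave 0.32 in surface ectoderm against -1.20, and the faintest of 4 Nsdhl probes gave 0.48 against -0.88, -0.67 and -1.06. Second probes of Fdps, Scap and Insig2 gave -0.88, 0.09 and -0.11 in KO surface ectoderm, with the same sign as the first. Msmo1, Idi1 and Scd1 had 1 probe each, as did Hsd17b7 beyond a probe detected on 0 of 12 arrays.

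Markers of the cut tissue and of neighbouring cells moved with genotype in the same arrays. Summed normalised intensities of 7 lens placode markers ran from 2299 to 2845 in WT surface ectoderm and from 577 to 635 in KO. Of 6 tested, 5 fell, where 2.39% of all genes passed lower, and Foxe3, Pitx3, Cryaa and Sox1 were not detected in KO. Foxe3, Pitx3 and Cryaa were not detected in either optic vesicle group. Those of them that were tested thus passed the detection filter through WT surface ectoderm alone, which set the direction of their difference. The 10 mesenchyme markers summed to 1895 to 1990 in WT and 3562 to 3616 in KO (5 of 8 tested higher, 1 lower; Twist2 and Lum not detected in WT, Postn not in KO). The 7 endothelial markers summed to 170 to 219 in WT and 449 to 526 in KO (4 of 6 higher; Tie1 not detected in either, Pecam1, Emcn, Kdr and Sox17 not in WT), and the 6 pigment epithelium markers to 437 to 1041 and 703 to 1241 (3 of 5 higher; Tyr and Tyrp1 not detected in either, Pmel and Dct not in WT). The 10 surface ectoderm markers, all detected in both groups on at least 1 array, summed to 9631 to 12200 in WT and 8450 to 9419 in KO, with 2 of 9 higher and 0 lower, and the 6 erythroid markers to 10184 to 10856 and 11691 to 12970, with 1 of 6 higher. The 7 probed neural retina markers summed to 1664 to 2148 in WT and 607 to 1051 in KO (1 of 5 lower; Six6 and Hes5 not detected in either), and the 7 macrophage markers to 225 to 498 and 163 to 289 (0 of 4 passed; C1qb and Ptprc not detected in either, Fcgr3 and C1qa not in KO). The part of these cell-type differences in the lower sterol genes was not tested.

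The same contrast in the optic vesicle gave smaller differences. Of 26 members, 21 were below 0 with a median of -0.21, against 52.3% of all genes and a median of -0.02. By limma 0 members passed, and 1.84% of all genes passed. An unadjusted p below 0.05 was found for 5 members and for 1454 of all 11888 genes. The KO arrays all lay below the WT arrays for 7 members (Idi1, Lss, Msmo1, Insig1, Acly, Acss2 and Scd1), against 11.8% of all genes. They all lay above for 1 member, Sc5d, and for 1124 of all 11888 genes. The medians by role were -0.24 for the mevalonate genes, -0.19 for the sterol genes, -0.25 for SREBP control and -0.23 for fatty acid genes.

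Scd1 in the optic vesicle read 9.91, 9.77 and 9.93 in WT and 9.28, 9.09 and 9.35 in KO. The groups did not overlap and the difference was -0.63 (SE 0.22, adjusted p = 0.22); it passed, at adjusted p = 0.038, only where the fit held the optic vesicle arrays alone. Msmo1 read 7.96, 8.44 and 8.44 in WT and 7.53, 7.79 and 7.27 in KO, a difference of -0.75 (adjusted p = 0.26). Insig1 read 10.32, 10.35 and 10.47 in WT and 10.15, 9.56 and 9.67 in KO (-0.58, adjusted p = 0.28), so KO replicate 1 lay nearer to the WT arrays than to the other KO arrays. Idi1 was at 12.10, 11.91 and 12.00 in WT and 11.34, 11.80 and 11.86 in KO (-0.34, adjusted p = 0.21). Sc5d, which makes the C5 double bond of cholesterol's precursors, went the other way, with 4.99, 4.68 and 5.33 in WT and 5.59, 6.38 and 5.91 in KO (0.96, adjusted p = 0.22). It was near the limit of detection, with 2 of 3 WT arrays detected. In the KO optic vesicle the pigment epithelium markers summed to 4687 to 4810 against 1102 to 1231 in WT (4 of 5 higher) and the neural retina markers to 1391 to 1672 against 3293 to 3688 (2 of 5 lower, Six6 not detected in either). Erythroid markers summed to 4817 to 5166 against 2043 to 2170 (4 of 6 higher), and mesenchyme markers to 823 to 998 against 269 to 325 (2 of 8 higher, Lum not detected in either). Surface ectoderm markers summed to 1069 to 1378 against 594 to 675 (1 of 9 higher, Trp63 and Krt15 not detected in either), and lens placode markers to 443 to 513 against 853 to 947 (1 of 6 lower; Foxe3, Pitx3 and Cryaa not detected in either). Endothelial markers summed to 213 to 300 against 219 to 241 and macrophage markers to 153 to 174 against 172 to 492, with 0 passing in either list, and the part of these shifts in the members' values was not tested.

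**Figure D3:**
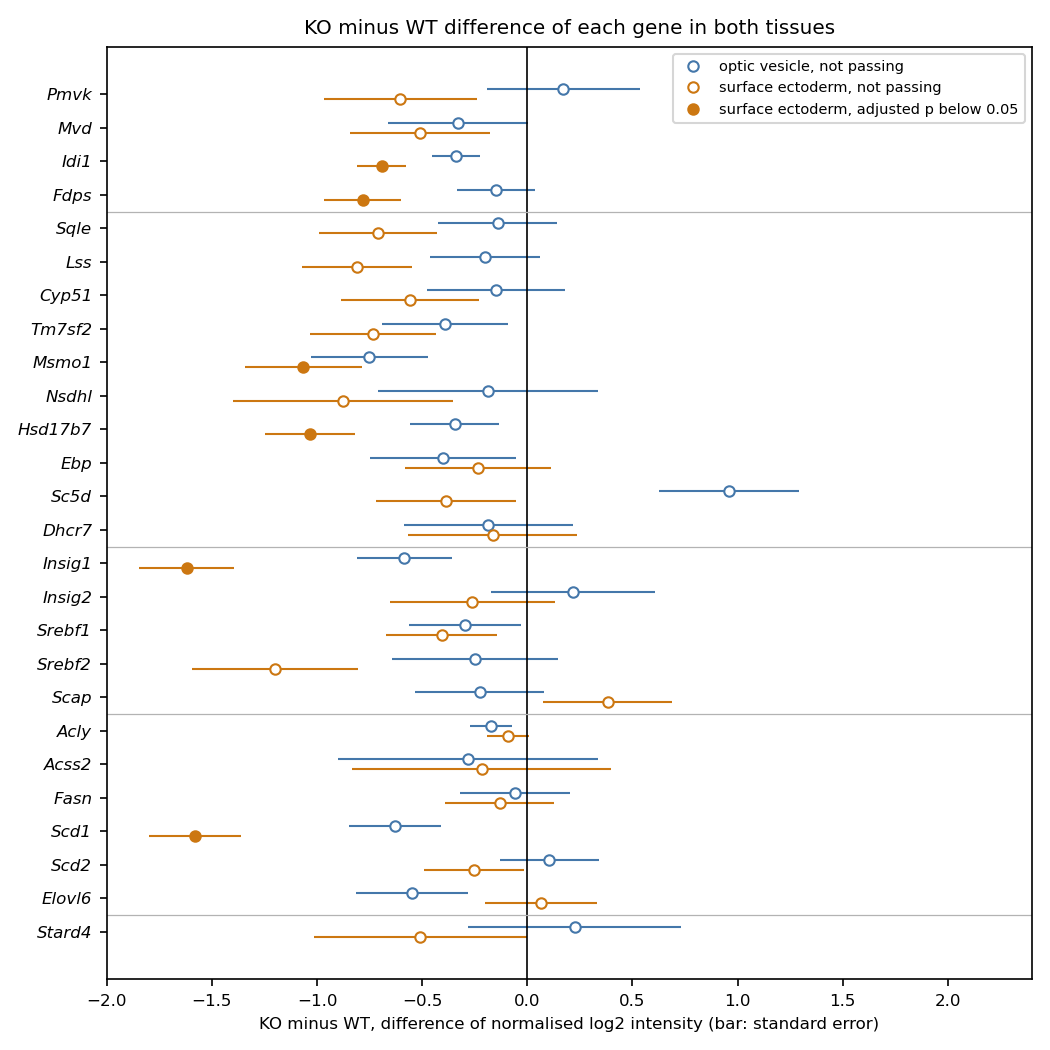
KO minus WT difference in normalised log2 intensity for the 26 tested members in optic vesicle (blue) and surface ectoderm (orange); bars are standard errors and filled points have an adjusted p below 0.05. The surface ectoderm point lies left of the optic vesicle point for 20 of the 26 members, and right of it for Elovl6 and Scap among the others.

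Whether the effect of genotype differed between the tissues was tested as an interaction, the KO minus WT difference in optic vesicle minus that in surface ectoderm. By limma 0 of 26 members passed, and 1.42% of all genes passed. An unadjusted p below 0.05 was found for 6 members and for 1552 of all 11888 genes. The interaction was above 0 for 20 members, with a median of 0.38, and for 5625 of all 11888 genes, with a median of -0.04. A value above 0 means that the KO minus WT difference was lower in surface ectoderm than in optic vesicle. For Pmvk, Sc5d, Insig2, Scd2 and Stard4, which are among the 20, the KO mean was above the WT mean in optic vesicle. The lowest p was that of Insig1, 1.04 (95% interval 0.35 to 1.72, adjusted p = 0.15). Scd1 had 0.95 (0.29 to 1.61, adjusted p = 0.17) and Sc5d 1.35 (0.33 to 2.36, adjusted p = 0.21). For Fdps, Hsd17b7 and Idi1 it was 0.63, 0.69 and 0.35 with adjusted p = 0.30, 0.34 and 0.38. For Msmo1 the difference was close in both tissues, -0.75 in optic vesicle and -1.07 in surface ectoderm. A larger fall in surface ectoderm than in optic vesicle was therefore not established for any single member, and the 2 contrasts share no arrays.

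The tissues were then compared within each genotype, as optic vesicle minus surface ectoderm. These comparisons use the same arrays as the genotype contrasts, so their values stand side by side with those above and are not a further sign of them. In WT, 20 of 26 members were above 0 with a median of 0.15, against 6430 of all 11888 genes with a median of 0.05. Of the members 2 passed higher and 1 lower, and 8.36% of all genes passed. In KO, 23 of 26 were above 0 with a median of 0.66, against 6096 of all 11888 genes with a median of 0.01. Of the members 7 passed higher and 1 lower. Among all genes 7.65% passed, with 3.5% passing in the higher direction. The sterol enzymes had a median of 0.54 in WT and 0.95 in KO, and the mevalonate enzymes 0.11 and 0.60.

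Elovl6 was higher in surface ectoderm in both genotypes. It read 7.23, 7.14 and 6.93 in WT optic vesicle and 8.63, 8.76 and 8.60 in WT surface ectoderm, a difference of -1.56 (SE 0.27, adjusted p = 0.0015). In KO it read 6.96, 6.11 and 6.58 in optic vesicle and 8.84, 8.62 and 8.74 in surface ectoderm, a difference of -2.18 (adjusted p = 9.9e-05). The tissues stood apart on every array, and a second Elovl6 probe gave -1.02 for WT tissues and -1.27 for KO tissues (adjusted p = 0.04 and 0.012 in the fit of all probes, where 6.17% and 5.38% of probes passed). Within slides the difference was -1.46 and -1.57 in WT and -2.67 and -1.85 in KO.

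Scd1 had the opposite order. From the values above it was higher in optic vesicle by 1.00 in WT (SE 0.22, adjusted p = 0.0093) and by 1.95 in KO (SE 0.22, adjusted p = 4.5e-05), with no overlap in either genotype. Its 4 group means fell in the order WT optic vesicle 9.87 ± 0.09, KO optic vesicle 9.24 ± 0.14, WT surface ectoderm 8.87 ± 0.27 and KO surface ectoderm 7.29 ± 0.38. Acss2, which makes acetyl-CoA from acetate, read 7.91, 7.85 and 8.12 in WT optic vesicle and 4.47, 6.85 and 6.14 in WT surface ectoderm, where it was detected on 2 of 3 arrays. It was 2.14 higher in optic vesicle (SE 0.62, adjusted p = 0.046; 1.21 without background correction), and the call was lost when any of 5 of the 6 WT arrays was left out, all but surface ectoderm replicate 2. In KO, Acss2 differed by 2.07 and did not pass (adjusted p = 0.056), with KO surface ectoderm at 4.83, 4.91 and 7.07.

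In KO the members that were higher in optic vesicle were Idi1, Fdps, Sqle, Lss, Sc5d, Insig1 and Scd1. Lss, at 8.70, 8.49 and 8.55 in KO optic vesicle and 7.38, 6.62 and 7.47 in KO surface ectoderm, differed by 1.43 (SE 0.26, adjusted p = 0.0031), but its second probe gave -0.45 (adjusted p = 0.48) in KO and 1.08 (adjusted p = 0.041) in WT, and the mean of its probes gave 0.33 in KO (adjusted p = 0.46). Insig1 was higher by 1.11 (SE 0.23, adjusted p = 0.0064), from the arrays given above, with a difference of 0.58 within slide 1 and 1.82 within slide 2. As the mean of its probes Insig1 was higher by 0.81 and did not pass (adjusted p = 0.09). Sc5d was higher by 1.35 (SE 0.33, adjusted p = 0.023), with KO surface ectoderm at 4.37, 4.44 and 5.03 and detected there on 1 of 3 arrays; without background correction the difference was 0.50. Idi1 was higher by 0.49 (adjusted p = 0.017), Fdps by 0.70 (adjusted p = 0.031; as the mean of its probes by 0.42, adjusted p = 0.58) and Sqle by 0.97 (adjusted p = 0.049). Sqle read 9.42, 8.92 and 8.71 in KO optic vesicle and 8.59, 8.05 and 7.49 in KO surface ectoderm, and its second probe gave 1.18 (adjusted p = 0.036). Leaving out 1 KO array cost the call of Fdps and Sqle for 5 of the 6 arrays each, of Sc5d for 4 and of Idi1 for 3, and the count fell to 4 of 26 without optic vesicle replicate 2 or 3.

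**Figure D4:**
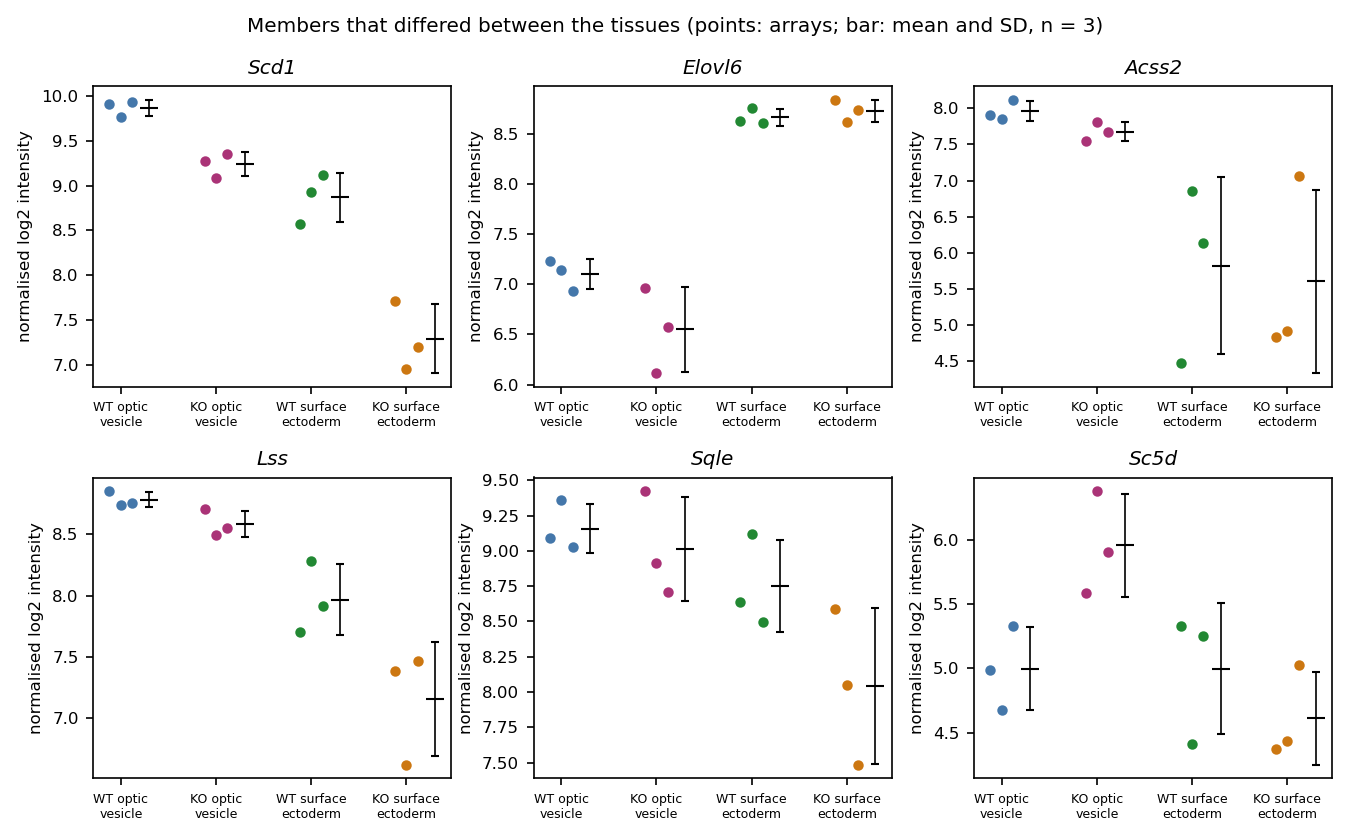
Normalised log2 intensity of 6 members that differed between the tissues in WT or KO, by group; points are arrays and the bar is the mean and SD (n = 3). Elovl6 is higher in surface ectoderm, Scd1 and Acss2 are higher in optic vesicle, and Acss2 spreads widely in surface ectoderm.

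Of 61 other genes of sterol and fatty acid metabolism, 53 had a probe and 49 were tested. For KO against WT, 1.84% of all genes passed in optic vesicle and 4.95% in surface ectoderm. An unadjusted p below 0.05 in optic vesicle was found for 1454 of all 11888 genes. Of the 49, none passed in the optic vesicle (0 of 49 by limma, 3 with an unadjusted p below 0.05), and in KO surface ectoderm 1 passed, lower, with a median of 0.05 over the 49. That gene was Elovl3, an elongase of very long chain fatty acids. It read 8.84, 9.77 and 9.46 in WT surface ectoderm and 5.18, 8.10 and 4.29 in KO surface ectoderm, where it was detected on 2 of 3 arrays. All KO arrays were below all WT arrays but spread over nearly 4 log2 units, and Elovl3 fell by 3.50 (SE 0.70, adjusted p = 0.0088), by 4.57 within slide 1 and by 1.36 within slide 2, and the difference was -2.26 without background correction. It was not detected on any optic vesicle array, so that in WT, on the background-corrected scale, it was at least 24.3-fold lower in optic vesicle than in surface ectoderm (adjusted p = 0.00035). This size depends on the background correction, since the log2 difference was -4.91 with it and -2.94 without. The Elovl3 probe passed the detection filter through surface ectoderm arrays alone, the tissue where it is high. With no detection filter, adjusted p by limma was 0.024 for KO against WT surface ectoderm and 0.0012 between the WT tissues.

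Between the WT tissues 7 of the 49 passed, 4 higher and 3 lower in optic vesicle, against 8.36% of all genes. Elovl4, an elongase of very long chain fatty acids known from photoreceptors, read 9.04 ± 0.24 in WT optic vesicle and 6.38 ± 0.23 in WT surface ectoderm, a difference of 2.67 (adjusted p = 6.3e-06). It was also the 1 of 49 that passed in KO, where 7.65% of all genes passed, at 9.27 ± 0.13 and 7.26 ± 0.26 (2.01, adjusted p = 0.00011). Elovl5 and Elovl2, elongases of polyunsaturated fatty acids, were higher in WT optic vesicle by 0.98 (adjusted p = 0.03) and 1.25 (adjusted p = 0.038), the latter by 0.76 without background correction; within slides Elovl5 differed by 0.57 and 1.51. Cyp7b1, an oxysterol hydroxylase, was not detected on any WT surface ectoderm array and was at least 2.12-fold higher in optic vesicle on the background-corrected scale (adjusted p = 0.019), with a log2 difference of 1.41 that was 0.51 without the correction. Mylip, the sterol-induced ubiquitin ligase for lipoprotein receptors, was lower in optic vesicle by 1.98 on the log2 scale (adjusted p = 0.0045), at 5.14 ± 0.12 against 7.12 ± 0.16; the difference was -0.94 without background correction and -1.26 as the mean of its probes. Leaving out 1 WT array cost the call of Elovl5, Elovl2 and Cyp7b1 for 5 of 6 arrays each. With no detection filter, Cyp7b1 and Elovl5 did not pass (adjusted p = 0.054 for each). Over the interaction 0 of 49 passed by limma, against 1.42% of all genes. An unadjusted p below 0.05 was found for 6 of the 49 and for 1552 of all 11888 genes.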

How the data were processed

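RNA of 12 arrays was measured. Per the file headers, the deposited scanner table holds each probe's mean bead intensity (linear scale, not normalised), its detection p-value, bead number and bead standard error; GenomeStudio is named in the submitters' processing notes, with no version. The deposited processed matrix holds linear intensity, some values below 0, with column medians of 9.40 to 9.42; each column ranked probes like its own array (rho 1), its direction is therefore that of the scanner values, and its background and normalisation options are not given in the sources used here. It served as an alternative.

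The scanner intensities went through neqc of limma 3.58.1 (R 4.3.3; offset 16, controls inferred from detection p). A gene's probe was kept if detected at p below 0.05 on at least 3 of 12 arrays. Of 45281 probes, 34885 had 1 symbol, 18 several and 10378 none; 34807 had an Entrez ID in RefSeq of GRCm38.p6, and 0 symbols changed. Only probes with a single symbol were named. A gene not detected on any array of a group has only a bound there, given as "at least N-fold", on the background-corrected scale. Each array of that group was set at the higher of its own signal and the lowest signal detected on it at p below 0.05. The bound is on the difference of the group means and does not take in the spread between arrays. Groups were compared with lmFit and eBayes (trend) on all 12 arrays, two-sided, Benjamini-Hochberg over 11888 genes. Replicate numbers recur across groups, but deviations of same-numbered arrays correlated between -0.04 and 0.02, so they gave no sign of pairing. No 2 arrays held identical values.

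The pipeline was tested on simulated data. The members and lists were chosen with earlier results of these data known, so their counts are descriptions and not independent support. All members are accounted for; members that passed are given on every array, up to 4 others per comparison by lowest p, and up to 6 other pathway genes that passed by lowest adjusted p; further members, and the differences of further probes, are given to complete the account of the list. Alternatives changed background correction, value source, detection filter, probe rule, slide, replicate block, arrays fitted, array weights and single arrays.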

Additional observations from a re-analysis of the deposited data

How the results depend on the processing

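The 25 named differences of members and other pathway genes were recomputed under 419 settings. They kept direction and side of the threshold in 296, missed the threshold in 123 and reversed in 0; the settings for other pathway genes were added after seeing the data. In KO surface ectoderm, Insig1 and Scd1 missed it only within slide 1 (adjusted p = 0.088 and 0.22), Idi1 and Hsd17b7 only within slides 1 and 2, Fdps in 10 of 17 settings and Msmo1 in 13 of 17. A slide holds 1 or 2 arrays of a group, so these fits rest on fewer samples; for the other settings the cause was not tested. The member count of 6 there became 0 within slide 1 and 2 within slide 2, and ran from 4 to 5 with single arrays left out. For WT tissues the 3 members became 0 within slide 1 and 0 within slide 2. For KO tissues the 8 became 0 within slide 1, 4 within slide 2 and 4 with only the compared groups in the fit, and ran from 4 to 8 with single arrays left out. In KO optic vesicle the count of 0 became 1 with only the compared groups in the fit. With the replicate number as a block, members called were 0 in optic vesicle, 5 in surface ectoderm, 2 between WT tissues, 6 between KO tissues and 0 for the interaction. The median over members in surface ectoderm was -0.28 without background correction against -0.54. Over all genes, the calls in optic vesicle went from 219 to 415 with array weights and to 0 and 65 within slides 1 and 2, and to 137, 134 and 127 without WT optic vesicle replicates 1, 2 and 3 and 143 without KO replicate 2. In surface ectoderm they went from 588 to 342 with array weights, 240 with only the compared groups, 368 with detection on all 12 arrays, 19 and 119 within slides, and 378 without WT replicate 1. Between tissues they went from 994 to 76 and 418 in WT and from 910 to 58 and 380 in KO within slides, and from 994 to 641 and from 910 to 569 with detection on all 12 arrays, and to 615 in WT without optic vesicle replicate 2. For the interaction 169 became 0 and 7 within slides, 89 with the replicate block, 94 with detection on all 12 arrays and 111, 96 and 109 without WT optic vesicle replicates 1, 2 and 3. Mvk and Acaca were near background, and so were Ebp, Sc5d, Fasn and Tm7sf2, which limits what these arrays show of them.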
